A study of Mus musculus with 4 samples.

Results

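Venular endothelial cells are the lining cells of the small veins that collect blood from the capillaries. They were picked out here by measured transcripts: a cell barcode was kept with at least 500 genes, at least 1000 transcript counts (unique molecular identifiers, UMIs), at most 10% mitochondrial UMIs, no Ptprc UMI (the leukocyte gene CD45) and at least 2 UMIs of the endothelial genes Cdh5 and Pecam1. Of these, a cell was called venular when its summed UMIs of Selp, Ackr1, Sele and Tmem252 reached 2 and exceeded both the sum of the capillary and arterial genes Gpihbp1, Sox17, Dll4 and Prnd and the sum of the lymphatic genes Mmrn1, Prox1 and Reln. By this rule 1661 cells were venular, of 4244 endothelial cells and of 39266 cells that passed the filters. Because the rule used these genes, their levels are given as a description.

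The cells came from the middle phalangeal (P2) segment of the digit of wild-type FVB/NJ mice, labelled 8 weeks old, a level that the series text calls non-regenerative, with fibrosing tissue after amputation. One library was made from unamputated digits and 1 each from digits 12, 17 and 28 days post amputation (dpa), so each group holds 1 library and no group difference has a replicate check. The tissue was digested with trypsin and collagenase, red cells were lysed, and live cells were sorted for 10x Chromium 3′ v3 sequencing. The labels name no transgene, drug or other allele in any group. The number of animals behind each library is not stated in the sources used here. Runs of 4 values below follow the order unamputated, 12, 17 and 28 dpa.

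Venules are the main place where leukocytes leave the blood. Selp encodes P-selectin and Sele E-selectin, receptors that slow rolling leukocytes, and Icam1 and Vcam1 encode the ligands on which they then stop; Ackr1 encodes an atypical receptor that carries chemokines across the vessel wall. Sele, Icam1 and several cytokine genes are textbook targets of the transcription factor NF-kB, which interleukin-1 and tumour necrosis factor activate. Endothelial vein identity is kept by the transcription factor Nr2f2 (COUP-TFII).

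The promoters of 3 genes of the rule and of Icam1 are shown because the former choose the cells and the latter encodes the ligand for firm adhesion described further on. Each is 300 bases long, 250 before the RefSeq transcript start and 50 from it on, on the gene's strand in build GRCm38.p6. They lie at chr1:164047984-164048283 (Sele, plus strand), chr1:164115014-164115313 (Selp, plus strand), chr1:173333454-173333753 (Ackr1, minus strand) and chr9:21015690-21015989 (Icam1, plus strand). Capitals mark matches to the NF-kB-like patterns GGGNNTTCC or GGANNTTCC, searched on both strands.
Sele: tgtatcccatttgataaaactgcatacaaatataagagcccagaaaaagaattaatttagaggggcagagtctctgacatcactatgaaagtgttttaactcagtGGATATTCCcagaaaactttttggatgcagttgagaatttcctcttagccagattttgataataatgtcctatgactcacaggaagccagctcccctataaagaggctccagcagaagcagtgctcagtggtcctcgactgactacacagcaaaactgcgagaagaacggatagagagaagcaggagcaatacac
Selp: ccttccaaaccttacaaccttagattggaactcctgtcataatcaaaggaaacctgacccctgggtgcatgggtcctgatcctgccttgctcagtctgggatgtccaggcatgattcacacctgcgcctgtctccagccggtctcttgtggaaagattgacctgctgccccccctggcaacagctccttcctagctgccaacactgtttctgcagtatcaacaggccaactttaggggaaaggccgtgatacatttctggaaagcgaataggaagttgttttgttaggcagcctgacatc
Ackr1: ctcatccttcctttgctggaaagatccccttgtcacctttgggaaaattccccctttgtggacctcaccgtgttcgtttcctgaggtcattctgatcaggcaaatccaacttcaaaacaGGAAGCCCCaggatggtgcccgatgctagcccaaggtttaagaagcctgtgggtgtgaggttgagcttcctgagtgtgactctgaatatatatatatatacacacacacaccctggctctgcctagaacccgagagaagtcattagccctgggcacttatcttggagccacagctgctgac
Icam1: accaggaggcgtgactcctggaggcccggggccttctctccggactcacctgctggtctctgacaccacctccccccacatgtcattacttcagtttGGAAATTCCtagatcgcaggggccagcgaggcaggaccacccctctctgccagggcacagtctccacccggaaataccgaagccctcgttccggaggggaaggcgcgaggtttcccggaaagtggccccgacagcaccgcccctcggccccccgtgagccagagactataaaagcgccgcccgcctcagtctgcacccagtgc
The Sele match GGATATTCC begins 145 bases before the start. The Icam1 match GGAAATTCC, which reads as the pattern on either strand, begins 153 bases before it. The Ackr1 match, GGAAGCCCC, is GGGNNTTCC on the opposite strand and begins 131 bases before the start. No match lies in the Selp window. Counted by strand, the Il6 promoter held 1 match, that of Nfkbia 3, 1 of the 2 Tnfaip3 promoters 3 and the other none, and that of Tmem252 none. Promoters of Vcam1 and Csf3 are named only. Among all 32851 mouse promoters of this length, 5.82% held GGGNNTTCC, 4.26% GGANNTTCC and 9.78% either. A match describes these letters and does not show that a factor binds there.

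The unamputated, 12, 17 and 28 dpa libraries held 760, 349, 271 and 281 venular cells, with 10261273, 3386787, 2576097 and 1972221 UMIs in all. The median depth per venular cell was 11252, 7603, 7233 and 5355 UMIs, so it was lower in every amputated library, and that of all kept cells was 12393.5, 9987, 8898 and 7114. Before filters the libraries held 16045, 8813, 10514 and 15253 barcodes. No venular barcode was shared between libraries, and any pair shared at most 57 barcodes among all cells. Levels are given in CPM, the summed UMIs of a gene over all venular cells of a library scaled to a total of 1000000, and intervals are 95% intervals that cover counting error only.

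Sex-linked transcripts went against the label, which gives pooled males and females for every library. Xist, expressed from the inactive X chromosome of females, reached 886.1 CPM in venular cells at 12 dpa, against 2, 0 and 1 UMIs in the unamputated, 17 and 28 dpa libraries. Summed Y-linked transcripts of 4 genes were 331.4, 272.5 and 247.4 CPM in those libraries and 1 UMI at 12 dpa. The 12 dpa venular cells were thus female-like and those of the other libraries male-like, so in each comparison of 12 dpa with unamputated the time and the sex cannot be told apart. The reported ratios at 17 and 28 dpa do not use the 12 dpa library, which enters the mean that decides which genes are compared. In the median-of-ratios alternative given below, the 12 dpa library also enters the scaling.

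Venular cells were 42.4% of endothelial cells in the unamputated library (exact Clopper-Pearson interval 40.1 to 44.7). At 12 dpa the share was 35.9%, with an interval of 32.9 to 39. The 17 dpa share was 38%, between 34.4 and 41.6, and the 28 dpa share was 36.8%, between 33.4 and 40.3. All 3 amputated libraries were below the unamputated one, but with 1 library per group these intervals do not measure a difference between groups. After every cell was thinned to 3000 UMIs and the rule was applied again, the shares were 38.9, 31.2, 38.8 and 36.2%. At equal depth, then, the 12 dpa share was the lowest and the 17 dpa share lay beside the unamputated one. Of all cells kept, venular cells made up 6.36, 5.03, 3.12 and 2.41%, and after thinning 5.69, 4.15, 2.67 and 1.93%. That share was lower in each later library with or without thinning; how many cells of each kind the digestion released is not known.

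**Figure D1:**
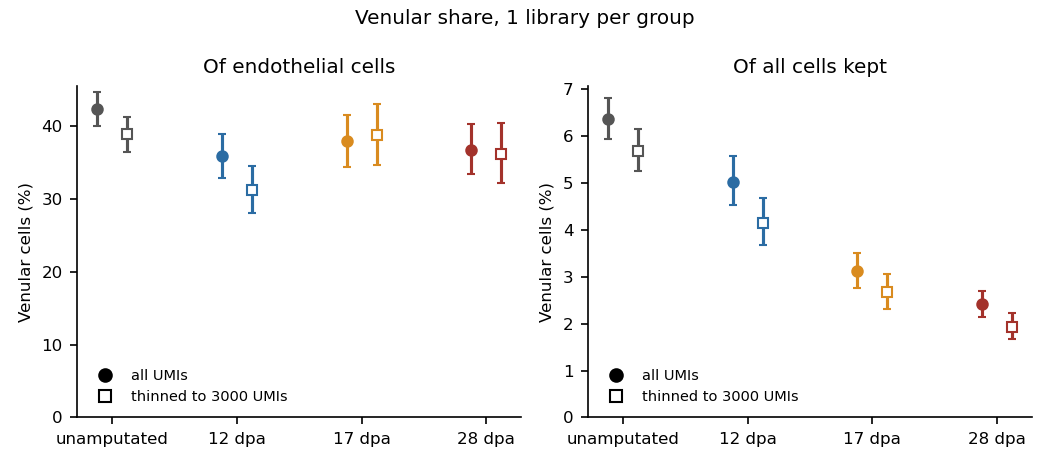
Venular cells as a percentage of endothelial cells (left) and of all cells kept (right), 1 point per library; filled circles use all UMIs, open squares cells thinned to 3000 UMIs, and bars are 95% exact binomial intervals. The share of endothelial cells lay between 31.2 and 42.4%, while the share of all cells went from 6.36% in the unamputated library to 2.41% at 28 dpa.

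The selectins marked most of the cells. A Selp UMI was found in 86.8, 82.2, 84.9 and 81.1% of venular cells, against at most 1.78% of the cells with no Cdh5 or Pecam1 UMI, which should lack it. Sele was found in 92, 92, 88.6 and 81.1%, against 15.9, 12.5, 15 and 11.1% of capillary and arterial cells, whose median depth was 12494, 9304, 7847 and 5724.5 UMIs. Ackr1 was less general, with 50.7, 45.6, 46.9 and 53%, against at most 0.996% of the cells with no Cdh5 or Pecam1 UMI. As levels, Selp had 1559, 1349, 1304 and 1630 CPM, Sele 1737, 1892, 1711 and 1356 CPM, Ackr1 172, 169.8, 154 and 244 CPM and Tmem252 100.3, 95.7, 111 and 125 CPM. The highest levels of Selp, Ackr1 and Tmem252 and the lowest level of Sele were all those of the 28 dpa library. The median cell held 20, 17, 13 and 8 UMIs of these 4 genes, a sum that moves with depth. Both selectins were seen in the same cell in 80.5, 75.6, 74.2 and 64.4% of cells. A UMI of the capillary and arterial sum was also present in 59.7, 50.7, 46.9 and 37.7% of venular cells.

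Genes outside the rule were set beside the venous label. Of 15 further venous genes, 14 reached the minimum of 30 CPM, and of 17 capillary and arterial genes 4 did. That minimum was taken over venular cells, so members high in these cells pass it more easily, and no count over those that passed is read as a check of the label. Nr2f2 had 275, 263, 266 and 231 CPM in venular cells against 90.6, 68.4, 90.5 and 63.3 CPM in capillary and arterial cells. Vwf, von Willebrand factor, had 266, 211, 259 and 229 CPM against 35.5, 35.5, 60.1 and 50.8. Lrg1, a secreted leucine-rich glycoprotein, had 258, 248, 245 and 341 CPM against 60.3, 57.1, 64.5 and 36.8. These 3 genes stood apart between the cell classes in all libraries. One gene listed as capillary, Fabp4 (a fatty acid binding protein), went the other way, with 2094, 2308, 2436 and 2550 CPM in venular cells against 756, 621, 1216 and 557. These genes were measured in the cells the rule had sorted, so the contrasts are a description.

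**Figure D2:**
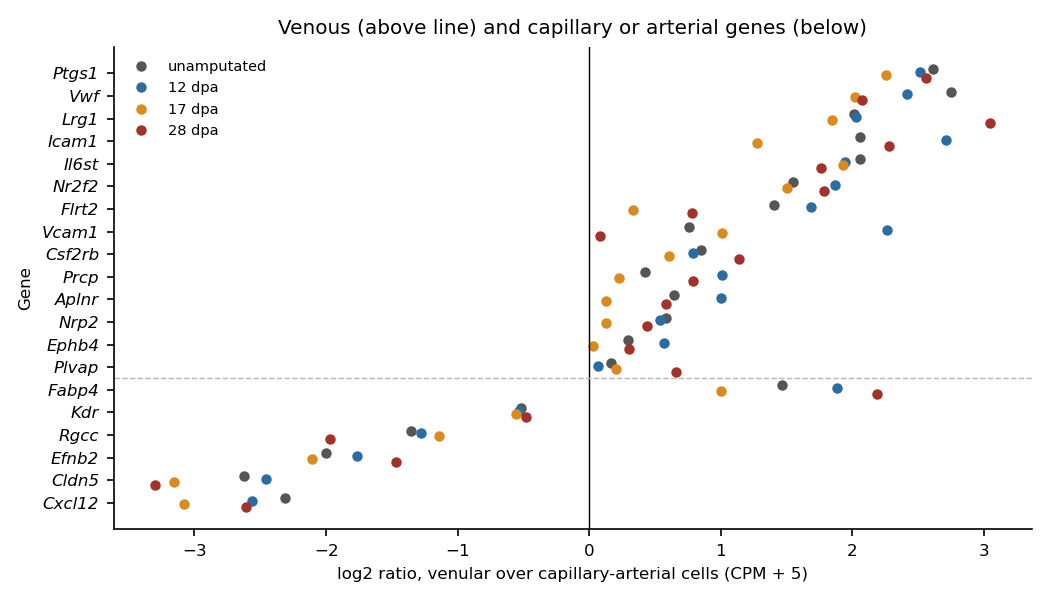
Log2 ratio of CPM in venular over capillary and arterial cells, with 5 CPM added to each, for the 14 venous genes (above the dashed line) and 6 genes of capillary or arterial cells (below); 1 coloured point per library. The venous genes shown passed a minimum level in venular cells, so their side of 0 is no check of the label; Fabp4, a capillary gene, also lies to the right of 0.

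Among the other genes that averaged at least 30 CPM in venular cells, those with the highest venular over capillary ratio in their lowest library were Tll1, Ctnnal1, Il1r1, Ptgs1, Cmah, Csf3, Wipf3, Ptk2b, Vwf, Plekha7, Lrg1 and Eps8. Tll1, a tolloid-like metalloprotease, had 208, 92.7, 222 and 147.5 CPM in venular cells and 5.62, 6.58, 2.53 and 2.21 CPM in capillary and arterial cells. At 12 dpa, 48.7% of its venular UMIs lay in 1 cell. Il1r1, the signalling receptor of interleukin-1, had 548, 530.3, 329 and 286 CPM against 59.2, 37.6, 61.4 and 51.5. Ptgs1, cyclooxygenase 1, had 90.9, 61.1, 88.1 and 93.8 CPM against 10.7, 6.58, 14.6 and 11.8. Csf3, the granulocyte colony-stimulating factor, had 26, 37.2, 26 and 52.2 CPM against 1.95, 0.789, 0.633 and 2.94. It was found in only 6.84, 4.87, 5.17 and 6.41% of venular cells, and 1 cell held 15.4, 17.5, 29.9 and 19.4% of its UMIs. A receptor for an inflammatory cytokine and a neutrophil growth factor were thus among the genes with the highest ratios of those compared.

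Near the threshold, 29, 25, 14 and 24 venular cells had exactly 2 UMIs of the venular sum, and 21, 23, 24 and 41 cells stayed outside with 1 UMI above both other sums. Il1r1, which the rule did not use, had 351, 250.4, 204 and 204 CPM in those just inside and 449, 398, 418 and 230.2 CPM in those with 1 UMI. A further 149, 53, 39 and 24 cells had 2 or more venular UMIs that did not exceed the other sums. In these Il1r1 was 60.3, 81.1, 74.8 and 57.1 CPM and the tight-junction gene Cldn5 was 462.5, 376, 904.5 and 358 CPM. Icam1 was 86.4, 82.9, 279 and 193 CPM in the cells with 1 UMI, 79.5, 50.1, 227.8 and 275 CPM in those just inside, and 283, 127, 876.5 and 556 CPM in the cells with mixed sums. The order of these cells thus depended on the gene.

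Levels were then compared with the unamputated library for 5407 genes, as log2 ratios with 5 CPM added; their intervals are of the plain ratio of counts, without the added 5. A gene was called past 2-fold at a log2 ratio of 1 or more, or -1 or less. At 12 dpa 11 genes (0.203%) were higher and 26 (0.481%) lower, at 17 dpa 59 (1.09%) were higher and 19 (0.351%) lower, and at 28 dpa 77 (1.42%) were higher and 81 (1.5%) lower. The median of all genes was -0.13, -0.07 and -0.13 at 12, 17 and 28 dpa, and list medians are read against it. Median-of-ratios scaling, which sets that median to about 0, gave 15 higher and 15 lower at 12 dpa, 75 and 15 at 17 dpa, and 102 and 48 at 28 dpa. Leaving out cells with transcripts of other cell types moved the balance the other way. Without cells with a Pdgfra, Pdgfrb, Notch3 or Krt1 UMI, 21 were higher and 21 lower at 17 dpa and 33 and 92 at 28 dpa, and without cells with 3 markers of other types 24 and 32, and 47 and 128. With cells thinned to 3000 UMIs before the rule the counts were 21 and 35, and 68 and 155. The balance of higher and lower genes at 17 and 28 dpa therefore depended on the setting. All 3 comparisons share the unamputated library, so their values are set side by side and not counted as repeats of each other.

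Leukocyte adhesion genes as a list held no called member in any comparison. Of 19 members 14 were measured, with medians of -0.15, -0.23 and -0.36 at 12, 17 and 28 dpa. Over the settings tried these ranged from -0.17 to -0.02, from -0.30 to -0.07 and from -0.38 to -0.09. The median of all genes can move with the setting too, so these ranges are not read against its value given above. With median-of-ratios scaling the list medians were -0.02, -0.14 and -0.23, against -0.01, 0.01 and -0.00 for all genes. Icam1, the integrin ligand for firm adhesion, had 696, 599.7, 766 and 977 CPM, highest at 28 dpa with a log2 ratio of 0.48 (0.41 to 0.56). Vcam1 had 77.1, 84.7, 72.6 and 57.3 CPM and was lowest there, at -0.40 (-0.72 to -0.14). Emcn, a sialomucin that keeps leukocytes off the resting endothelium, had 1073, 1026, 881 and 814 CPM, each amputated library below the unamputated one. F11r was at -0.66, Mcam at -0.57 and Podxl at -0.49 at 28 dpa, while Esam was at -0.12, Cd34 at -0.09 and Nectin2 at 0.07. So at 28 dpa Icam1 was above its unamputated level. Of the 14 members 10 were below 0, where 61.6% of all 5407 genes were. With median-of-ratios scaling 8 of 14 members and 2716 of 5407 genes were below 0.

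Of 6 measured chemokine and cytokine genes (of 15), 5 lay above 0 at 28 dpa, where 38.4% of all genes did and 1.42% were called higher. The list median was 0.66 there, against 0.19 at 12 dpa and 0.18 at 17 dpa. Over the settings tried the medians ranged from -0.25 to 0.39, from -0.19 to 0.45 and from 0.15 to 0.78 at 12, 17 and 28 dpa. Called higher were Cxcl1 and Cxcl2, which encode neutrophil attractants. Cxcl1 had 147, 180, 241 and 382 CPM, with a log2 ratio of 1.35 (1.25 to 1.51) at 28 dpa. Cxcl2 had 33.4, 65.5, 44.6 and 77.1 CPM and a ratio of 1.09 (0.92 to 1.49). Both had more CPM in all 3 amputated libraries, but Cxcl2 at 12 dpa had a log2 ratio of -0.72 without cells with a Pdgfra, Pdgfrb, Notch3 or Krt1 UMI and -0.21 after thinning. One cell held 30.6% of its UMIs at 12 dpa and 37.5% at 28 dpa, and it was found in 7.63, 9.46, 11.8 and 6.41% of venular cells. In venular cells without a UMI of Pdgfra, Pdgfrb, Notch3 or Krt1, and over the other settings tried, the Cxcl1 ratio at 28 dpa ranged from 0.25 to 1.48 and that of Cxcl2 from -0.88 to 1.38. Csf3 at 28 dpa was 0.88 (0.66 to 1.34), with a range of -0.89 to 1.0 over settings. Il6 had 111, 92.7, 79.2 and 124 CPM, with no steady direction. Ccl2, the monocyte attractant, fell under the minimum at 16.5, 5.31, 40.4 and 45.6 CPM.

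Of 13 measured NF-kB response genes (of 16) none was called, and the medians were -0.01, 0.15 and 0.36. At 28 dpa 10 of 13 lay above 0, against 38.4% of all genes. The median there ranged from 0.07 to 0.48 over the settings tried. Nfkbia, the inhibitor that NF-kB itself induces, had 564.5, 584, 695 and 921 CPM and a log2 ratio of 0.70 (0.63 to 0.78) at 28 dpa, with 0.22 to 0.83 over the settings tried. Ier3, an immediate early stress gene, had 467, 544, 630.4 and 747 CPM and 0.67 (0.59 to 0.76), with 0.53 to 0.86. Both were higher in each amputated library than in the unamputated one, and highest at 28 dpa. In capillary and arterial cells the corresponding 28 dpa ratios were 0.94 for Nfkbia and 1.45 for Ier3, so the direction there was the same.

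**Figure D3:**
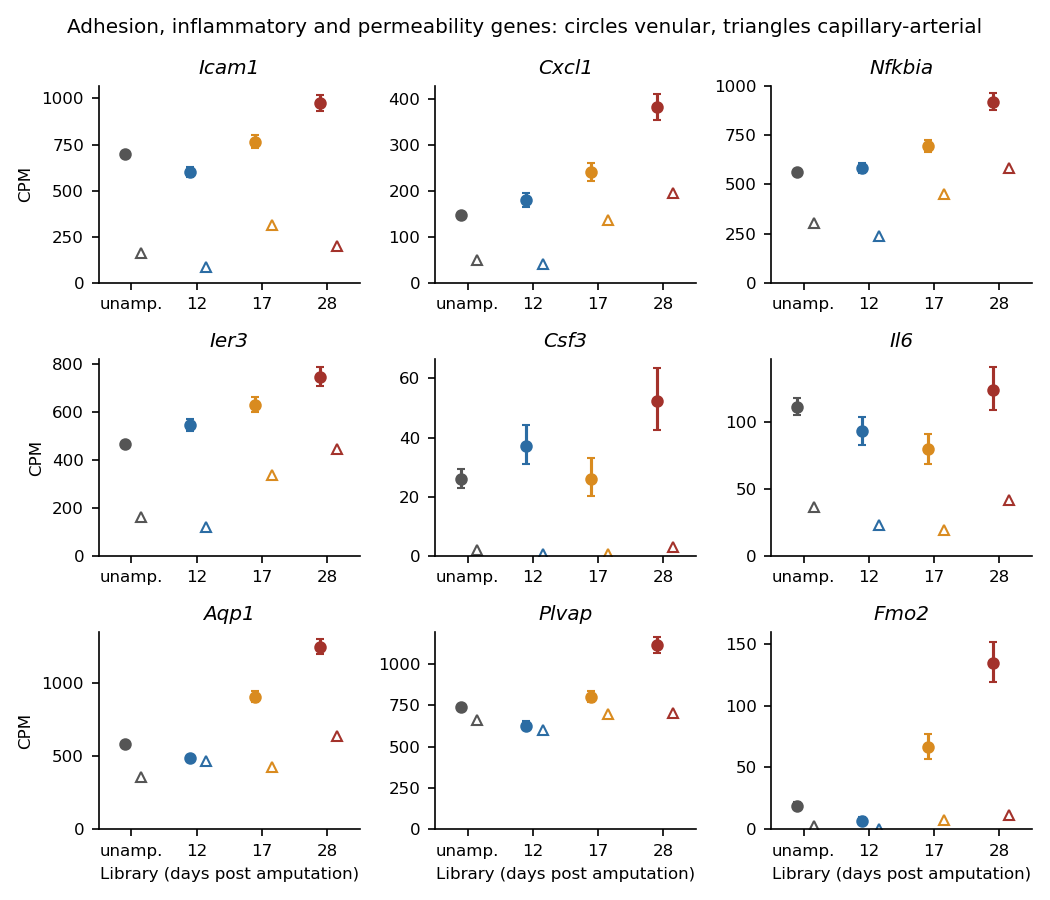
Levels in CPM (vertical axis from 0) of 9 genes by library; filled circles are venular cells with 95% Poisson intervals, open triangles capillary and arterial cells without interval. Icam1, Cxcl1, Nfkbia, Ier3, Aqp1, Plvap and Fmo2 are highest in venular cells at 28 dpa, and Csf3 and Il6 lie near 0 or low in capillary and arterial cells.

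Receptors for inflammatory signals had no called member among the 14 measured of 20, and medians of -0.22, 0.03 and -0.03. At 12 dpa 13 of 14 lay below 0 (9 with median-of-ratios scaling), at 17 dpa 6 and at 28 dpa 7. The shares of all 5407 genes below 0 were 66.4, 60.0 and 61.6% at 12, 17 and 28 dpa. Il1r1 had a log2 ratio of -0.05 at 12 dpa. The 17 dpa ratio was -0.73, with an interval of -0.84 to -0.63, and the 28 dpa ratio was -0.93, with -1.07 to -0.81. It stayed between -1.0 and -0.79 at 28 dpa over the settings tried. The gene named in the list with the highest level, Il6st (the shared signal chain of the interleukin-6 family), had 1399, 878, 1705 and 1647 CPM. It was lowest at 12 dpa, at -0.67 (-0.73 to -0.62), and its partner receptor Osmr, with 142, 93.6, 145 and 145.5 CPM, was lowest in the same library.

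Interferon response genes gave medians of -0.13, -0.02 and -0.30 over 7 measured members of 18, with none called; the 28 dpa median changed sign with the settings. Ifitm3, an antiviral membrane protein gene, had 1347, 1840, 1753 and 2088 CPM, above unamputated in all 3 amputated libraries. Antigen presentation genes had 5 measured members of 12, medians of 0.02, 0.16 and -0.05, and none called.

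Genes of clotting and of platelet control showed 1 called member in 3 comparisons, lower at 12 dpa, where 0.481% of all genes were called lower. Nt5e (CD73), which makes anti-inflammatory adenosine at the cell surface, had 114, 48.4, 96.7 and 111 CPM and a log2 ratio of -1.16 (-1.48 to -1.0) at 12 dpa, ranging from -1.66 to -0.89 over the settings tried. The other amputated libraries were near the unamputated one, and the capillary and arterial ratio at 12 dpa was 0.19. Entpd1 (CD39), which works just before CD73 in the same reaction chain, had 1030, 874, 815 and 673 CPM, lower in each amputated library. At 28 dpa F2r, a thrombin receptor, was at -0.83 (-1.25 to -0.58), Plat, the tissue plasminogen activator, at -0.72 and Tfpi, the tissue factor inhibitor, at -0.69. Over all 15 measured members of 18 the medians were -0.20, -0.14 and -0.04. S100a10, a partner of annexin on the cell surface, went the other way with 746, 1073, 847 and 1207 CPM.

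Junction and permeability genes had 14 measured members of 16, with medians of -0.29, -0.15 and -0.18. Aqp1, a water channel, had 585, 485, 907 and 1251 CPM and was called higher at 28 dpa, at 1.09 (1.03 to 1.17), with 0.89 to 1.22 over the settings tried. Plvap, which forms the diaphragms of endothelial pores and caveolae, had 739, 626, 802 and 1115 CPM and a log2 ratio of 0.59 (0.53 to 0.66) at 28 dpa. Both were lowest at 12 dpa and highest at 28 dpa. Plvap in capillary and arterial cells was at 0.09 at 28 dpa; the difference between the cell classes was not tested. Cldn5, the main tight-junction claudin of endothelium, had 87.6, 95.4, 87.7 and 52.2 CPM, with -0.69 (-1.05 to -0.45) at 28 dpa and a range of -1.26 to -0.11 over the settings tried, the latter after thinning. Tjp1, a junction scaffold, had 386, 253, 310.5 and 269 CPM, lower in all 3 amputated libraries.

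VEGF, angiopoietin and apelin genes guide vessel growth. At 28 dpa all 13 measured members (of 19) lay below 0, with a median of -0.64 and 3 called lower, where 61.6% of all 5407 genes lay below 0 and 1.5% were called lower; the medians at 12 and 17 dpa were -0.12 and -0.37. All 13 were also below 0 with median-of-ratios scaling, and the 28 dpa median lay between -0.66 and -0.39 over the settings tried. Vegfc, a growth factor for lymphatic and venous endothelium, had 118, 129, 63.7 and 31.9 CPM and a log2 ratio of -1.74 (-2.28 to -1.52) at 28 dpa. It was detected in 341, 155, 79 and 45 cells. Aplnr, the apelin receptor, a gene of venous endothelium, had 251, 258, 148 and 96.3 CPM and a ratio of -1.34 (-1.60 to -1.17). Apln, its ligand, had 72.3, 93.6, 41.5 and 23.8 CPM and a ratio of -1.42 (-2.06 to -1.18). All 3 were near or above the unamputated level at 12 dpa, lower at 17 dpa and lowest at 28 dpa. Over the settings tried the 28 dpa ratios ranged from -2.04 to -1.41 for Vegfc, from -1.40 to -0.94 for Aplnr and from -1.82 to -0.89 for Apln. In capillary and arterial cells they were -0.81, -1.28 and -1.27.

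Kdr (VEGF receptor 2) had 354, 325, 257 and 208 CPM, a log2 ratio of -0.75 (-0.91 to -0.62) at 28 dpa. Tek (TIE2), the angiopoietin receptor, had 435, 386.5, 318 and 278 CPM and a ratio of -0.64 (-0.78 to -0.52). Calcrl, the receptor for adrenomedullin, had 858, 696, 565 and 474 CPM and a ratio of -0.85 (-0.95 to -0.76). None of the 3 was called, and each was lower in every later library. Angpt2, the TIE2 antagonist ligand, was under the minimum level, at 15.4, 13.6, 39.2 and 45.1 CPM.

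Among BMP, TGF-beta and Notch genes (18 measured of 24, medians -0.14, -0.16 and -0.09) 1 was called. It was lower at 28 dpa, where 1.5% of all genes were called lower. Bmp2, a secreted ligand, had 68, 82.7, 39.2 and 19.3 CPM and a log2 ratio of -1.59 (-2.33 to -1.35) at 28 dpa. Bmp4, a related ligand, had 32.4, 26, 55.5 and 66.9 CPM, with 0.94 (0.74 to 1.34). The ligands Bmp2 and Bmp4 therefore had opposite signs at 17 and 28 dpa. Targets of BMP signalling did not share a direction. Id3 had 306, 447, 456 and 456 CPM and Id1 had 162, 221, 238 and 232 CPM, while Id2 had 52.3, 45.2, 41.9 and 71.5 CPM and the inhibitor gene Smad7 89.1, 77.7, 74.5 and 83.2 CPM. Smad6, a related inhibitor gene under the minimum, had 36.2, 33.7, 25.2 and 20.8 CPM.

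Of 16 measured basement membrane genes 12 lay below 0 at 28 dpa, with a median of -0.51 and 3 called lower, against the same 61.6% and 1.5% of all genes; the median lay between -0.56 and -0.38 over the settings tried. Col4a1, a chain of the main basement membrane collagen, had 1604, 1671, 1221 and 783 CPM and a log2 ratio of -1.03 (-1.11 to -0.96). The ratio ranged from -1.07 to -0.90 over the settings tried. Its partner Col4a2 had 1048, 1037, 769 and 559 CPM and a ratio of -0.90 (-1.0 to -0.82). Col18a1, the collagen that yields endostatin, had 657, 763, 429 and 313 CPM and a ratio of -1.06 (-1.19 to -0.95), ranging from -1.14 to -0.93. These 3 collagens shared 1 order: the unamputated and 12 dpa libraries high, 17 dpa lower and 28 dpa lowest. Nid2, a linker of laminin and collagen IV, had 86.7, 77.7, 63.7 and 40.6 CPM and was called at -1.01 (-1.45 to -0.77), with a range of -1.10 to -0.51, and Col15a1 was at -0.97. The same collagens were lower in capillary and arterial cells, where Col4a1 had 3592, 3159, 2492 and 1678 CPM.

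Fn1, fibronectin, was the called basement membrane member that was higher, with 294, 226, 765.5 and 872 CPM and log2 ratios of 1.37 at 17 dpa and 1.55 at 28 dpa. Its 17 dpa ratio ranged from -0.30 to 1.46 and its 28 dpa ratio from 0.28 to 1.69 over the settings tried, the lowest being without cells that held a UMI of Pdgfra, Pdgfrb, Notch3 or Krt1 at 17 dpa. Fibroblast markers in venular cells summed to 5450, 5078, 9932 and 5723 CPM, with all 6 detected, and markers of pericytes and smooth muscle to 281, 431, 1166 and 1317 CPM, with all 8 detected. Keratinocyte markers summed to 711, 627, 656 and 1131 CPM, with 5 of 5 detected. Leukocyte markers summed to 85.3, 73.5, 164 and 235 CPM, with the T cell gene Cd3e or the B cell gene Cd79a or both at 0 in each library; platelet markers summed to 20.3, 28.4, 25.2 and 63.9 CPM with Ppbp and Gp9 at 0 throughout. The part of these transcripts in the values of Fn1, Cxcl1 and Cxcl2 was not tested apart from those settings.

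**Figure D4:**
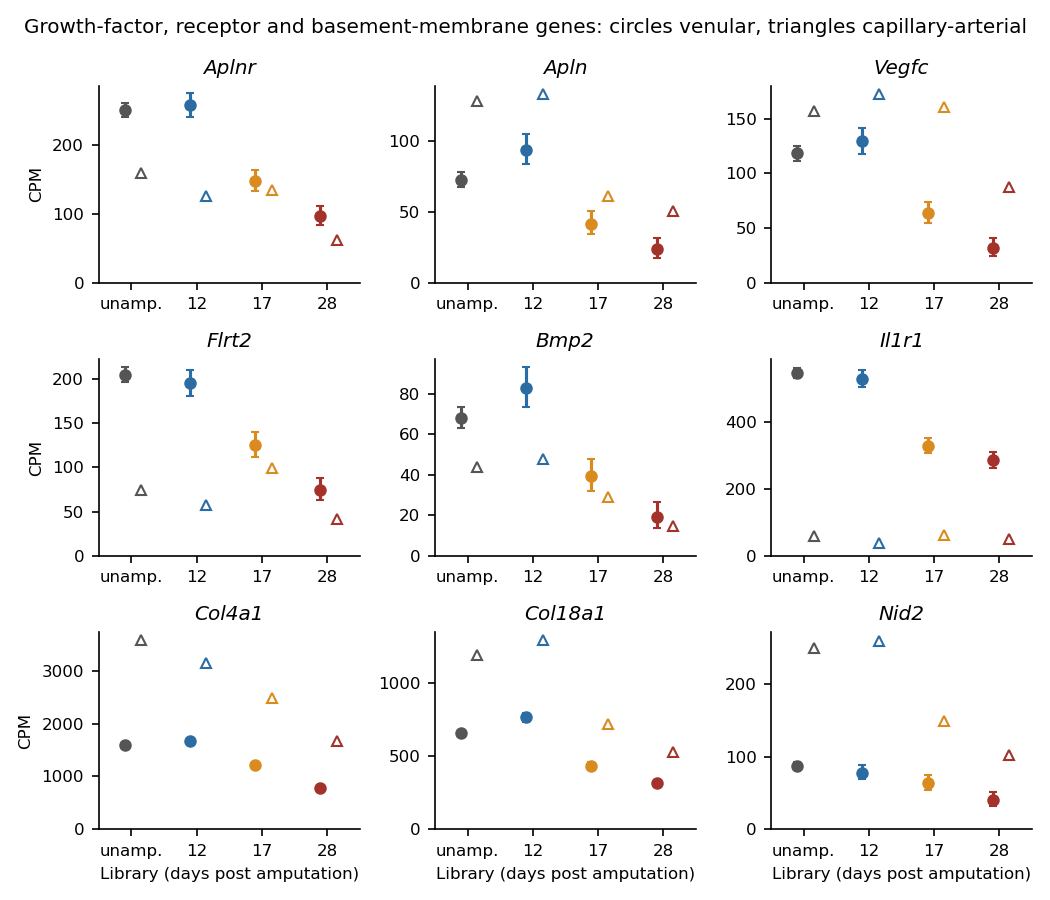
Levels in CPM (vertical axis from 0) of 9 growth factor, receptor and basement membrane genes by library; filled circles are venular cells with 95% Poisson intervals, open triangles capillary and arterial cells without interval. Every gene shown is lowest in venular cells at 28 dpa, for example Vegfc at 31.9 CPM against 118 CPM in the unamputated library.

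Venous identity genes themselves were near the median of all genes (-0.13, -0.08 and -0.23). Aplnr and Flrt2, of 14 measured, were called lower at 28 dpa, as were 1.5% of all genes. Flrt2, a transmembrane guidance protein gene, had 204, 195, 125 and 74.5 CPM and a log2 ratio of -1.40 (-1.71 to -1.21), between -1.84 and -1.25 over the settings tried. Nr2f2 was at -0.25 at 28 dpa, Vwf at -0.21 and Lrg1 at 0.39. Rgcc, a gene of the capillary list, was called lower at 28 dpa, with 79.5, 84.5, 80.3 and 30.4 CPM. Its log2 ratio ranged from -1.53 to -0.98 over the settings tried. Of 7 lymphatic genes only Fxyd6 was measured, and it was called higher at 17 dpa, at 1.06, with a range of 0.64 to 1.16. Of the other endothelial transcription factor genes, 14 of 14 were measured and none called, with medians of -0.24, -0.16 and -0.17. Mecom had 1210, 1075, 877 and 731 CPM and Ets1 had 626.5, 546, 432 and 370.1 CPM, both lower in each later library.

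A UMI of Mki67 or Top2a was found, after thinning to 3000 UMIs, in 11.3% (9.15 to 13.8), 9.12% (6.24 to 12.8), 6.25% (3.61 to 9.95) and 7.17% (4.23 to 11.2) of venular cells. Unthinned shares were 22.8, 18.9, 12.9 and 11%. In capillary and arterial cells the thinned shares were 10.2, 10.4, 7.27 and 6.59%, and in cells with no Cdh5 or Pecam1 UMI 13.3, 11.8, 9.46 and 11.1%. The thinned venular shares in all 3 amputated libraries were below the unamputated one, and the unthinned shares follow depth. No cycling is read from these shares alone. Of 18 proliferation genes 8 were measured, with medians of 0.13, -0.52 and -0.31. The 28 dpa median was 0.061 without Scrublet doublets and 0.006 at a minimum of 100 CPM. At 17 dpa all 8 lay below 0 (7 of 8 with median-of-ratios scaling), against 60.0% of all genes. Top2a (-1.10) and Stmn1 (-1.39) were called lower there, as were 0.351% of all genes. Over the settings tried Top2a ranged from -1.80 to -0.06, the latter without Scrublet doublets, and Stmn1 from -1.68 to -0.99.

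Immediate early and stress genes, which tissue digestion can induce, had 15 of 17 members below 0 at 12 dpa, against 66.4% of all 5407 genes. Their median was -0.41. It was 0.15 without cells with 3 markers of other types, where Fos and Zfp36 also changed sign. Above 0 were 13 of 17 at 17 dpa (median 0.33) and 14 of 17 at 28 dpa (median 0.23). The shares of all genes above 0 were 39.9% and 38.4%. Called were Egr1 (-1.05), Hspa1b (-1.11) and Nr4a1 (-1.08), all lower at 12 dpa, where 0.481% of all genes were called lower. Over the settings tried these 3 reached -0.37, -0.84 and -0.91 and so lost the call. Egr1, an immediate early transcription factor, had 285, 135, 468.5 and 335 CPM. Capillary and arterial cells gave medians of -0.42, 0.58 and 0.70 for the same list, of the same sign as in venular cells. The list's part in the differences of the cytokine and NF-kB genes was not tested.

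Outside the lists, the genes with the highest ratios at 12 dpa included Cdk8, Hist1h4d, Cmss1, Camk1d and Lars2. Cdk8, a Mediator kinase, had 553, 2413, 1152 and 519.7 CPM and a log2 ratio of 2.12 (2.08 to 2.17) at 12 dpa. Its ratio was 2.10 in capillary and arterial cells and 1.79 in cells with no Cdh5 or Pecam1 UMI; differences between these ratios were not tested. The lowest were Spp1, Mmp13, Cxcl14, Ptprd, Lepr and Vcan. Without cells with 3 markers of other types Mmp13, Cxcl14 and Ptprd were at 0.304, 0.522 and 0.045, and Spp1 ranged from -5.19 to -0.33 over the settings tried. Spp1 and Mmp13 are genes of bone and matrix-degrading cells, and 66.5% of the unamputated Spp1 UMIs in venular cells lay in 1 cell. Lepr, the leptin receptor, had 208, 67.6, 320 and 352 CPM, a log2 ratio of -1.55 (-1.82 to -1.42) at 12 dpa. It kept between -1.77 and -1.38 over the settings tried, and its ratio was -1.21 in capillary and arterial cells. Lepr was thus lowest in the female-like 12 dpa library and highest at 28 dpa.

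At 17 dpa the highest ratios belonged to Prg4, Ibsp, Mmp13, Krt2, Serping1 and Igfbp6, genes that joint, bone, skin and connective tissue cells express strongly. Over the settings tried Prg4 ranged from 0.60 to 8.55 and Serping1 from 0.39 to 2.53, and Ibsp, Mmp13 and Krt2 changed sign in at least 1 setting. Of the 17 dpa venular UMIs, 1 cell held 92.4% of Prg4, 92.6% of Krt2 and 58.4% of Mmp13. The lowest were Cxcl14, Hmgn2, Stmn1, Diaph3, Rpl29 and Dkk2. Of these Cxcl14 ranged from -1.79 to 0.47 over the settings tried, a change of sign, and Diaph3 from -2.09 to -0.55. Dkk2, a secreted Wnt modulator, had 74.2, 79.4, 27.6 and 21.3 CPM and log2 ratios of -1.28 (-1.80 to -1.08) at 17 dpa and -1.59 (-2.29 to -1.35) at 28 dpa.

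At 28 dpa the highest were Kyat3, Mt4, Fmo2, Gsn, Igfbp6 and Dpt. Kyat3 rested on 1 cell with 96.8% of its UMIs and changed sign without each gene's top cell, while Gsn, Igfbp6 and Dpt are also fibroblast genes and had ratios of 2.05, 4.37 and 2.14 in capillary and arterial cells. Fmo2, a flavin-containing monooxygenase, was spread over many cells. It had 18.7, 6.5, 66.4 and 134 CPM in 87, 10, 73 and 116 venular cells, and log2 ratios of 1.59 (1.52 to 2.13) at 17 dpa and 2.56 (2.57 to 3.12) at 28 dpa. Its level in capillary and arterial cells was 2.41, 0.263, 7.59 and 11.1 CPM. Over the settings tried its 28 dpa ratio was between 2.0 and 2.87. Fmo2 thus had the order 12 dpa lowest, 28 dpa highest that Lepr and Aqp1 also had.

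The lowest at 28 dpa were Mmp13, Nav3, Peg3, Marcksl1, Slit2 and Mboat2. Over the settings tried Mmp13 ranged from -2.91 to -0.15 and Slit2 from -2.17 to -0.63, so both lost the call in at least 1 setting. Nav3, a microtubule-associated neuron navigator, had 143, 141, 74.1 and 19.8 CPM and a log2 ratio of -2.58 (-3.35 to -2.39). Peg3, an imprinted zinc finger gene, had 88.7, 75.9, 42.7 and 13.2 CPM and -2.37 (-3.37 to -2.19). Both had about equal levels in the unamputated and 12 dpa libraries and the lowest at 28 dpa. Cells with no Cdh5 or Pecam1 UMI had ratios of -2.39 for Nav3 and -1.15 for Peg3, so neither difference was limited to endothelium.

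A narrower list was made after the values were seen, of genes with at least 2 times the level of the cells with no Cdh5 or Pecam1 UMI. At 28 dpa its highest members were Kyat3, Fmo2, Ptprn2, Slco2b1, Cyp2d22, Itih5, Bmp4 and Clu, and its lowest Peg3, Mboat2, Vegfc, Chn1, Mbd4, Dkk2, Bmp2 and Tspan18. Slco2b1, an organic anion transporter, had 30, 14.5, 41.5 and 85.2 CPM, a log2 ratio of 1.36 (1.23 to 1.78). Its ratio was 0.31 in capillary and arterial cells and 1.25 in cells with no Cdh5 or Pecam1 UMI. Ptprn2, a receptor-type phosphatase gene, had 21.2, 5.61, 38.4 and 62.9 CPM, a ratio of 1.37 (1.23 to 1.89). In the same other cell classes its ratio was -0.40 and -0.05. The differences of these ratios between cell classes were not tested. At 12 dpa the narrower list held at its lower end Lepr, Dach1, Kcnc2, Nt5e, Tll1, Gpm6a, Prkag2 and Tmcc3.

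Venular cells differed among themselves in Sele. Cells without a Sele UMI numbered 61, 28, 31 and 53 of the 760, 349, 271 and 281. The median depths of cells with and without it were 11550, 7622, 7269.5 and 5784 against 7740, 6646.5, 7063 and 3959 UMIs. Icam1 was 716, 633, 859 and 1127 CPM in cells with a Sele UMI and 360, 145, 153 and 168 CPM in cells without, a difference of 0.98, 2.09, 2.45 and 2.71 log2 units. Tnfaip3, which encodes the NF-kB brake A20, was 73.8, 77.1, 87.2 and 96.9 CPM against 15.9, 21.4, 17.7 and 16.1. Nfkbia was 582, 614, 755 and 1033 CPM against 267.5, 171, 301 and 316. Every one of these genes was higher in the cells with Sele in all 4 libraries.

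Of the 6 measured chemokine and cytokine genes, Csf1, Csf3 and Il6 were higher with Sele in all 4 libraries. Il6 was 115, 96.7, 86.7 and 142 CPM with Sele and 37.2, 38.5, 29.5 and 25.8 CPM without. Csf3 was 27.5, 39.7, 29.9 and 62 CPM with Sele and was at 0, 4.28, 0 and 0 CPM without. Only 52, 17, 14 and 18 venular cells held a Csf3 UMI, so 0 in the few cells without Sele does not show its absence. Cxcl1 and Cxcl2 were lower with Sele at 17 dpa, at -0.59 and -2.21 log2 units, and higher in the other 3 libraries. Cxcl12 was lower with Sele in the unamputated and 12 dpa libraries, at -0.40 and -0.20, and higher in the later ones. Of the 5407 genes, 12.3% were higher in cells with Sele in all 4 libraries and 7.12% lower. Of the NF-kB list 9 of 13 were higher in all 4 and none lower, namely Bcl3, Birc3, Ier3, Nfkbia, Nfkbiz, Rela, Relb, Tnfaip3 and Tnip1. Of the immediate early and stress list 11 of 17 were higher in all 4, among them Atf3, Fos and Jun. Other lists also exceeded the share of all genes, with 8 of 14 endothelial transcription factor genes, 6 of 14 adhesion genes, 3 of 7 interferon genes, 5 of 14 receptor genes and 5 of 16 basement membrane genes higher with Sele in all 4. Lower in cells with Sele were Anxa8, Ddhd1, Prkag2, Kcnc2 and Copz2; Prkag2, a regulatory subunit of the energy sensor AMPK, was 96.9, 46.9, 118 and 93.2 CPM with Sele and 200.2, 81.2, 197.5 and 145 CPM without.

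The split used Sele, which is also a gene of the rule, so it is a description of cells within each library.

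**Figure D5:**
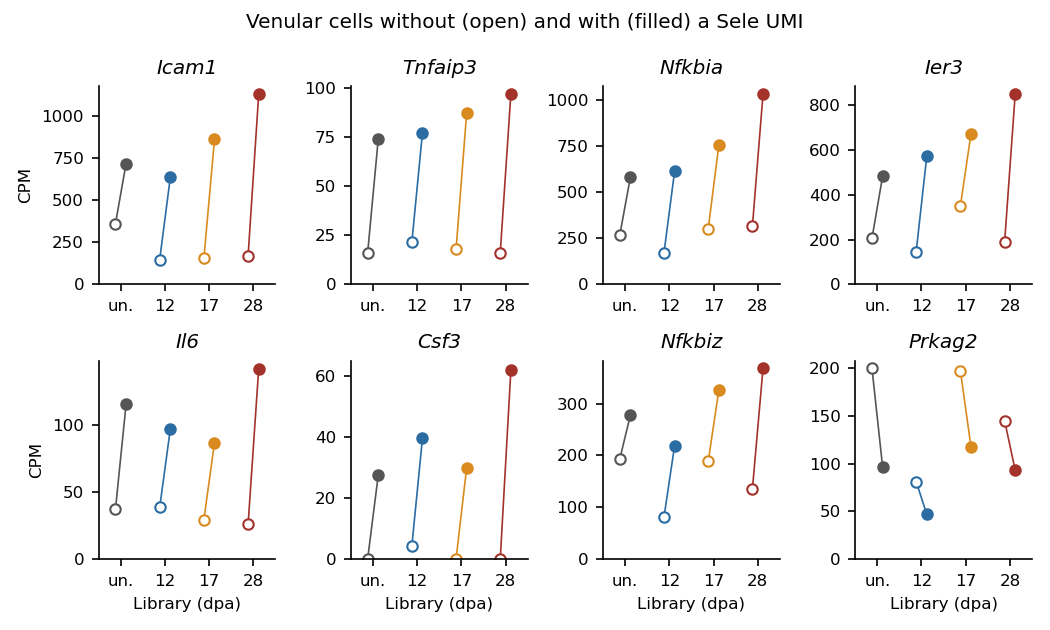
Levels in CPM (vertical axis from 0) of 8 genes in venular cells without (open) and with (filled) a Sele UMI, joined within each library. Of the 8, 7 are higher with Sele in all 4 libraries, for example Icam1 at 1127 against 168 CPM at 28 dpa, and Prkag2 is lower in all 4.

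Ackr1 split the cells along another line. Cells with an Ackr1 UMI numbered 385, 159, 127 and 149 and those without 375, 190, 144 and 132, with median depths of 11658, 8210, 7942 and 5911 against 10233, 7070, 6733 and 5253.5 UMIs. This split was chosen after its detection was seen. Vwf was 384, 288.5, 352 and 299 CPM with Ackr1 and 127, 130.1, 167 and 143 CPM without. Lrg1 was 349, 334, 340.5 and 491 CPM with and 151, 159, 150.5 and 154 CPM without. Tll1 was 318, 149.5, 334 and 199.8 CPM with and 77.7, 33.7, 111 and 82.9 CPM without. Ackr1 is a gene of the rule, so this split too is a description. Of the measured venous identity genes 9 of 14 were higher with Ackr1 in all 4 libraries (Csf2rb, Icam1, Il6st, Lrg1, Nr2f2, Plvap, Ptgs1, Vcam1 and Vwf) against 9.73% of all 5407 genes. Adhesion and receptor genes had 7 of 14 each and interferon genes 3 of 7.

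Of the 4 measured genes of the capillary and arterial list, Efnb2, Kdr and Rgcc were lower with Ackr1 in all 4 libraries and Fabp4 was higher in all 4. Cldn5 and Cxcl12, which are not on that list and were chosen after their values were seen, were lower too. Cldn5 was 45.4, 41.7, 48.4 and 36.7 CPM with Ackr1 and 137, 151, 127 and 71.5 CPM without. Cxcl12, a chemokine of arterial and capillary endothelium, was 107, 135, 101 and 114 CPM with and 369, 243, 295 and 271 CPM without. The arterial ligand gene Efnb2 was 55.7, 44, 27.3 and 46.7 CPM with and 99.8, 103, 88.7 and 93.1 CPM without. Of the basement membrane list 10 of 16 were lower with Ackr1 in all 4 libraries, among them Col4a1, Col4a2, Col18a1 and Nid2, against 13.5% of all genes. Of the NF-kB list 2 of 13 were higher in all 4 (Ier3 and Nfkbia) and 2 lower (Tnfaip2 and Tnip1). Csf3 and Icam1 were higher on the positive side of both splits. Every cell was also thinned to 3000 UMIs before the splits. Vcam1 by Ackr1 then went from 0.26 to -0.99 in its library of smallest difference, and Csf3 by Ackr1 from 1.5 to 0.65. Over the genes followed for both splits, 16 values stayed close, 4 moved further and 1, that of Vcam1, changed sign.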

How the data were processed

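The 4 single-cell libraries, 1 per group, were analysed, each as a matrix of UMI counts per gene and barcode. Per the submitters' processing notes the authors made these counts with Cell Ranger 7.1.0 on mm10, and the deposited counts are whole, not normalized and cover 32285 genes, of which 32158 IDs were found in the GRCm38 annotation. Filters, the cell rule and the lists were applied here with Python 3.11.15, numpy 2.4.6, pandas 2.3.3, scipy 1.17.1 and scanpy 1.11.5. The cell rule, members and gene lists were chosen with earlier results of these data known.

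UMIs of the venular cells of a library were summed and scaled to CPM. Compared were the genes that averaged 30 CPM or more across libraries, without the genes of the rule and without mitochondrial and sex-linked genes, as log2 of the ratio with 5 CPM added. With 1 library per group no test across samples is possible: intervals are exact Poisson, exact conditional ratio or Clopper-Pearson intervals at 95% and cover counting error only, and no p-value is given. The ratio step was tested on simulated data. Named genes were the 6 highest and 6 lowest ratios per comparison that reached 50 CPM in the higher library and at least 0.25 of the level of the cells with no Cdh5 or Pecam1 UMI, with an interval that excluded no change; markers of other cell types and unnamed genes were left out. List members that were called or of high level and the 12 genes highest over capillary and arterial cells were also named. Other genes were chosen after their values were seen. One gene that the rule names is not reported here.

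Doublets were not removed for the values reported. Scrublet, at 0.8% per 1000 barcodes, marked 70, 32, 28 and 42 venular cells, and leaving them out was an alternative. Ptprc UMIs removed 45, 12, 18 and 19 cells with a venular pattern. Shares were also computed after thinning each cell to 3000 UMIs, with shallower cells left out. Other alternatives were a minimum of 3 venular UMIs, a stricter filter (1000 genes, 2000 UMIs, 5% mitochondrial), pseudocounts of 1 and 20 CPM, median-of-ratios scaling, other minimum levels, per-cell means, and leaving out Tmem252 or cells with markers of other cell types. Chosen after seeing the data were leaving out each gene's top cell, leaving out cells with Pdgfra, Pdgfrb, Notch3 or Krt1 UMIs, thinning before the rule and thinning before the splits. Promoters came from RefSeq on GRCm38.p6, a table of 27025 symbols.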

Additional observations from a re-analysis of the deposited data

Results flagged for a closer look

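Xist, which the comparisons leave out, reached 886.1 CPM in venular cells at 12 dpa and 0.195, 0 and 0.507 CPM in the unamputated, 17 and 28 dpa libraries, where 3 counts correspond to 0.292, 1.16 and 1.52 CPM. Mt4, an epithelial metallothionein gene, had a log2 ratio of 1.22 at 17 dpa in venular cells and -1.29 in capillary and arterial cells, opposite calls whose difference was not tested. Its venular levels were 26.4, 57.3, 68.3 and 196 CPM, and 1 cell held 42.6% of the Mt4 UMIs at 17 dpa. Fmod, a fibrous-tissue proteoglycan gene, had a log2 ratio of -1.08 at 28 dpa in venular cells and 1.05 in capillary and arterial cells, and this difference was not tested either. Its venular levels were 50.7, 77.7, 74.1 and 21.3 CPM. Keratinocyte and fibroblast markers in the same cells are given in the report, and their part in both values was not tested.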

How the results depend on the processing

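No paired analysis was possible because each group holds 1 library, and no library could be left out for the same reason. The venular share of endothelial cells (42.4, 35.9, 38 and 36.8%) was 38.7% in the unamputated library with the stricter filter, 45.9% there and 44.7% at 17 dpa without cells holding 3 markers of another cell type, and 38.9% (unamputated) and 31.2% (12 dpa) after thinning; of all cells it was 6.36, 5.03, 3.12 and 2.41%. The unamputated share was the highest of the 4 in each of these settings.

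Counts of genes past 2-fold moved most. For 12 dpa higher and lower, 17 dpa higher and lower, and 28 dpa higher and lower they were 11, 26, 59, 19, 77 and 81. They were 19, 42, 78, 33, 87 and 89 with the stricter filter, 23, 26, 31, 15, 43 and 85 without Scrublet doublets, and 41, 115, 24, 32, 47 and 128 without cells with 3 markers of other types, when 103 to 516 cells per library were left. Without cells with Pdgfra, Pdgfrb, Notch3 or Krt1 UMIs they were 17, 33, 21, 21, 33 and 92, and with the mean of each cell's CPM 17, 19, 33, 14, 65 and 88. A pseudocount of 20 CPM gave 9, 10, 39, 10, 56 and 41, and median-of-ratios scaling 15, 15, 75, 15, 102 and 48. A minimum of 100 CPM, with fewer genes compared, gave 7, 11, 28, 6, 30 and 29, and no minimum 28, 60, 162, 78, 222 and 201. Thinning before the rule gave 22, 43, 21, 35, 68 and 155. Higher counts at 17 and 28 dpa were thus lower in the settings that leave out cells with markers of other types, where the cause was not tested. Over all settings, 44 counts stayed within 1.5 times of the reported one and 40 did not.

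The adhesion median was below 0 in every setting run. So was the reported median of all genes at each time (-0.133, -0.074 and -0.127), which can itself move with the setting. At 12 dpa (-0.150) it was -0.077 without cells with 3 markers of other types, -0.099 without Pdgfra, Pdgfrb, Notch3 or Krt1 cells, -0.020 with median-of-ratios scaling and -0.112 with thinning. At 17 dpa (-0.232) it was -0.305 with the stricter filter, -0.135 without doublets, -0.087 and -0.151 for the same 2 exclusions, -0.168 with per-cell means, -0.287 without each gene's top cell, -0.141 with median-of-ratios scaling, -0.160 with no minimum and -0.072 with thinning. At 28 dpa (-0.360) it was -0.246, -0.217, -0.221 and -0.112 for the filter, doublets and exclusions, -0.302 with per-cell means, -0.289 with a pseudocount of 20 CPM, -0.234 with median-of-ratios scaling, -0.090 with no minimum and -0.273 with thinning.

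Some values changed sign. Without cells with 3 markers of other types, the 12 dpa stress median was 0.148, Alcam 0.332, Cxcl14 0.522, Fos 0.077, Mmp13 0.304, Ptprd 0.045 and Zfp36 0.190; at 17 dpa Cxcl14 was 0.307, Fn1 -0.174 and Krt2 -0.505; at 28 dpa Csf3 was -0.892, Cxcl2 -0.882, Kyat3 -0.126 and the interferon median 0.081. Without Pdgfra, Pdgfrb, Notch3 or Krt1 cells, Cxcl14 was 0.606, Cxcl2 -0.724 and Mmp13 0.369 at 12 dpa, Cxcl14 0.469, Fn1 -0.300 and Krt2 -0.207 at 17 dpa, and Fosb -0.018 and Kyat3 -0.198 at 28 dpa. Without doublets, Ibsp was -0.035 and Mmp13 -1.336 at 17 dpa, and at 28 dpa Kyat3 was -0.141 and the interferon and proliferation medians 0.010 and 0.061. With thinning, Cxcl2 was -0.210 at 12 dpa, Fn1 -0.127, Krt2 -0.667 and Mmp13 -0.705 at 17 dpa, and Kyat3 -0.393 and the interferon median 0.180 at 28 dpa. Krt2 at 17 dpa was also -0.464 with 3 venular UMIs and -0.260 without its top cell, Cxcl14 was 0.057 with the stricter filter, and Kyat3 at 28 dpa was -0.082 without its top cell. With a minimum of 100 CPM the 28 dpa interferon and proliferation medians were 0.166 and 0.006. Vcam1 by Ackr1 was -0.988 after thinning. For each of these the cause was not tested. Of the single-gene values over all settings, 2089 moved by no more than their counting error, 469 moved by more, and 32 changed the sign of a difference whose interval excluded 0 or that was past 2-fold.

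With 1 library per group, a difference between libraries can come from the animals, the dissection or the library as well as from the time after amputation, and these cannot be told apart. The depth of 5355 UMIs per cell at 28 dpa limits low genes.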
